A study of Mus musculus with 40 samples.

Results

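Whole mouse embryos that lack KAT6A were compared with wild-type (WT) embryos at embryonic day 9.5 (E9.5) by bulk RNA-sequencing. Of the 40 libraries of the series, 8 entered this comparison: the 4 labelled *Kat6a* cfd/cfd with WT *Kat6b*, and the 4 labelled WT at both genes. The *Kat6a* null allele, homozygous in *Kat6a-/-* embryos, lacks exons 3 to 7 and was kept on a C57BL/6 background, and all 8 embryos carried 2 WT alleles of *Kat6b*. Each library is 1 whole embryo, so a change in a gene cannot be assigned to a tissue, and fewer cells of a type cannot be told apart from less RNA per cell. *Kat6b-/-* embryos (allele without exons 2 to 12, *Kat6a* WT) and *Kat6a* G656E embryos (homozygous for a glycine to glutamate change in the acetyltransferase domain of KAT6A, *Kat6b* WT), 4 libraries each, served for direct comparisons. The *Kat6b* null strain was kept on a C57BL/6 background and the point mutant strains on C57BL/6J. All 24 E9.5 libraries entered 1 limma fit, which held 4 surrogate variables and treated litter as a random effect. The model follows that described for the study.

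KAT6A, also called MOZ, is a histone lysine acetyltransferase of the MYST family that works in a complex with a BRPF scaffold protein, ING5 and MEAF6. It is known for keeping developmental regulators active, among them Hox genes and *Tbx1*, and for its part in blood stem cells. At this stage of mouse development the neural tube has closed along much of its length and is being patterned from floor plate to roof plate, the pharyngeal arches are forming, the looped heart beats, and a single-layered surface ectoderm covers the embryo.

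Each WT library held between 11823454 and 19078839 counts in genes, and each *Kat6a-/-* library between 11498135 and 21725329. The WT embryos came from 4 litters and the *Kat6a-/-* embryos from 3, and only litter 5556 held both genotypes. The study used male embryos, but *Kat6a-/-* replicate 2 held *Xist*, the RNA of the inactive X chromosome, at 525 CPM (a gene's count scaled to a common library total) and 4 Y-linked genes at a sum of 0.199 CPM. In the other 7 libraries *Xist* was at 0 to 0.232 CPM and the Y-linked genes at 143 to 175 CPM. Counts over gene lists are therefore also given without *Kat6a-/-* replicate 2 in the sections on them. All 24 markers of embryonic tissues examined were at 1 CPM or more in all 8 libraries. The summed level of 6 yolk sac markers was 25.4, 42.4, 33.6 and 159 CPM in WT and 15.0, 3.97, 44.5 and 141 CPM in *Kat6a-/-*, so that replicate 4 of each genotype held more yolk sac RNA than the others. Their part in the results was not tested. Levels of single genes below are CPM of the tested genes after TMM scaling of library sizes, and summed levels of lists are CPM of all assigned counts over every listed gene.

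*Kat6a* was at 180.0, 169, 186 and 169 CPM in WT and 159.8, 165, 168 and 171 CPM in *Kat6a-/-* (log2 fold change -0.08, SE 0.0893, FDR=0.716). The groups overlapped. Exons 3 to 7 make up 14.9% of the exon length and 17.4% of the coding length of the canonical *Kat6a* transcript (GRCm39, chromosome 8, 23349545 to 23433275, plus strand, 18 exons), so a count over the whole gene checks the genotype labels only weakly. *Kat6b*, the paralogue, was at 42.6, 38.2, 42.6 and 38.3 CPM in WT and 43.9, 42.0, 44.1 and 42.2 CPM in *Kat6a-/-* (log2 fold change 0.12, SE 0.0663, FDR=0.39).

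Of 14183 protein-coding genes tested, 375 (2.64%) were called, that is, passed a false discovery rate (FDR) of 0.05 in limma: 196 (1.38%) were lower and 179 (1.26%) were higher in *Kat6a-/-*. The typical change was small. Lower genes had a median absolute log2 fold change of 0.36 and higher genes one of 0.39, 284 of the 375 changed by less than 1.5-fold, and 15 by at least 2-fold. The 4 *Kat6a-/-* values lay apart from the 4 WT values in 285 called genes (76.0%), against 1692 (11.9%) of all genes tested. Within litter 5556, with 1 library of each genotype, 371 of the 375 differed in the direction of the fit. The 2 libraries were WT replicate 1 and *Kat6a-/-* replicate 2, so they also differed in *Xist*. Both were part of the fit that chose the 375 genes, so the shared direction was fixed in part by that choice.

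The number of calls depended on single libraries. It was 148, 102, 115 and 210 without WT replicates 1, 2, 3 and 4, and 204, 346, 238 and 293 without *Kat6a-/-* replicates 1, 2, 3 and 4. Without *Kat6a-/-* replicate 2, the library with *Xist*, 199 genes were lower and 147 were higher. With no surrogate variable in the fit 111 genes passed, and the share of lower genes moved from 52.3% to 39.6%, with 44 lower and 67 higher. P-values of the limma fit rest on the variation left across its libraries of every genotype, after the surrogate variables were taken into account. They do not measure the spread between the compared WT and *Kat6a-/-* embryos alone.

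**Figure D1:**
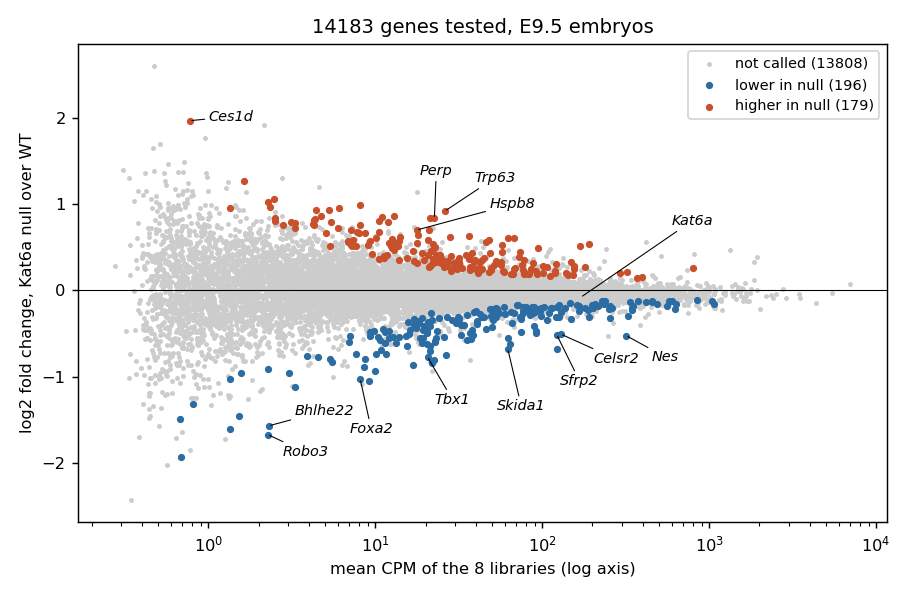
Log2 fold change of *Kat6a* null over WT against the mean CPM of the 8 libraries (log axis) for 14183 genes, one point a gene. Blue points are the 196 genes called lower, orange points the 179 called higher and grey points those not called. The 15 called genes that changed by at least 2-fold lie towards the left of the plot, at low CPM.

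The gene with the smallest p in the whole comparison was *Sfrp2* (GRCm39, chromosome 3, 83673481 to 83681623), which encodes a secreted modulator of Wnt signalling. It was at 147, 144, 150.0 and 143 CPM in WT and 94.0, 109, 91.8 and 98.6 CPM in *Kat6a-/-* (log2 fold change -0.51, SE 0.0541, FDR=8.68e-06). All *Kat6a-/-* values lay below all WT values. *Skida1*, a nuclear SKI/DACH domain protein gene, was at 78.0, 77.3, 73.8 and 87.5 CPM in WT and 35.6, 58.2, 48.6 and 38.6 CPM in *Kat6a-/-* (log2 fold change -0.68, SE 0.0783, FDR=6.02e-05). *Celsr2*, an adhesion receptor of the planar cell polarity pathway, was at 159.8, 165, 156 and 149 CPM in WT and 86.6, 129, 100.2 and 91.9 CPM in *Kat6a-/-* (log2 fold change -0.51, SE 0.0609, FDR=6.35e-05). The groups did not overlap in either gene, and in both the highest *Kat6a-/-* value was that of replicate 2. *Tbx1*, the T-box factor of the pharyngeal arches, was at 25.8, 25.3, 24.5 and 31.8 CPM in WT and 12.5, 17.7, 14.1 and 12.97 CPM in *Kat6a-/-* (log2 fold change -0.77, SE 0.103, FDR=0.000171).

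The other genes among the 10 lower ones with the smallest p were *Crmp1* (-0.42, FDR=8.69e-05) and *Dpysl4* (-0.42, FDR=0.00108), both of the collapsin response mediator family, *Bhlhe22* (-1.57, FDR=0.000285), a neuronal bHLH repressor, *Gprin1* (-0.62, FDR=0.0003), which acts in neurite growth, *Adgrb1* (-0.55, FDR=0.000487), an adhesion receptor of the nervous system, and *Mcm4* (-0.21, FDR=0.000707), a subunit of the replicative helicase. All 10 were called in each of the 8 fits that left out 1 library. In *Gprin1*, *Adgrb1* and *Dpysl4* the groups overlapped by *Kat6a-/-* replicate 2 and WT replicate 4 alone: *Gprin1* was at 25.7, 29.9, 23.8 and 20.8 CPM in WT and 13.9, 21.3, 13.6 and 14.6 CPM in *Kat6a-/-*. *Bhlhe22* was at 3.98, 4.20, 3.55 and 2.47 CPM in WT and 0.706, 1.46, 0.938 and 1.17 CPM in *Kat6a-/-*, the largest change of the 10 at a level of few CPM.

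**Figure D2:**
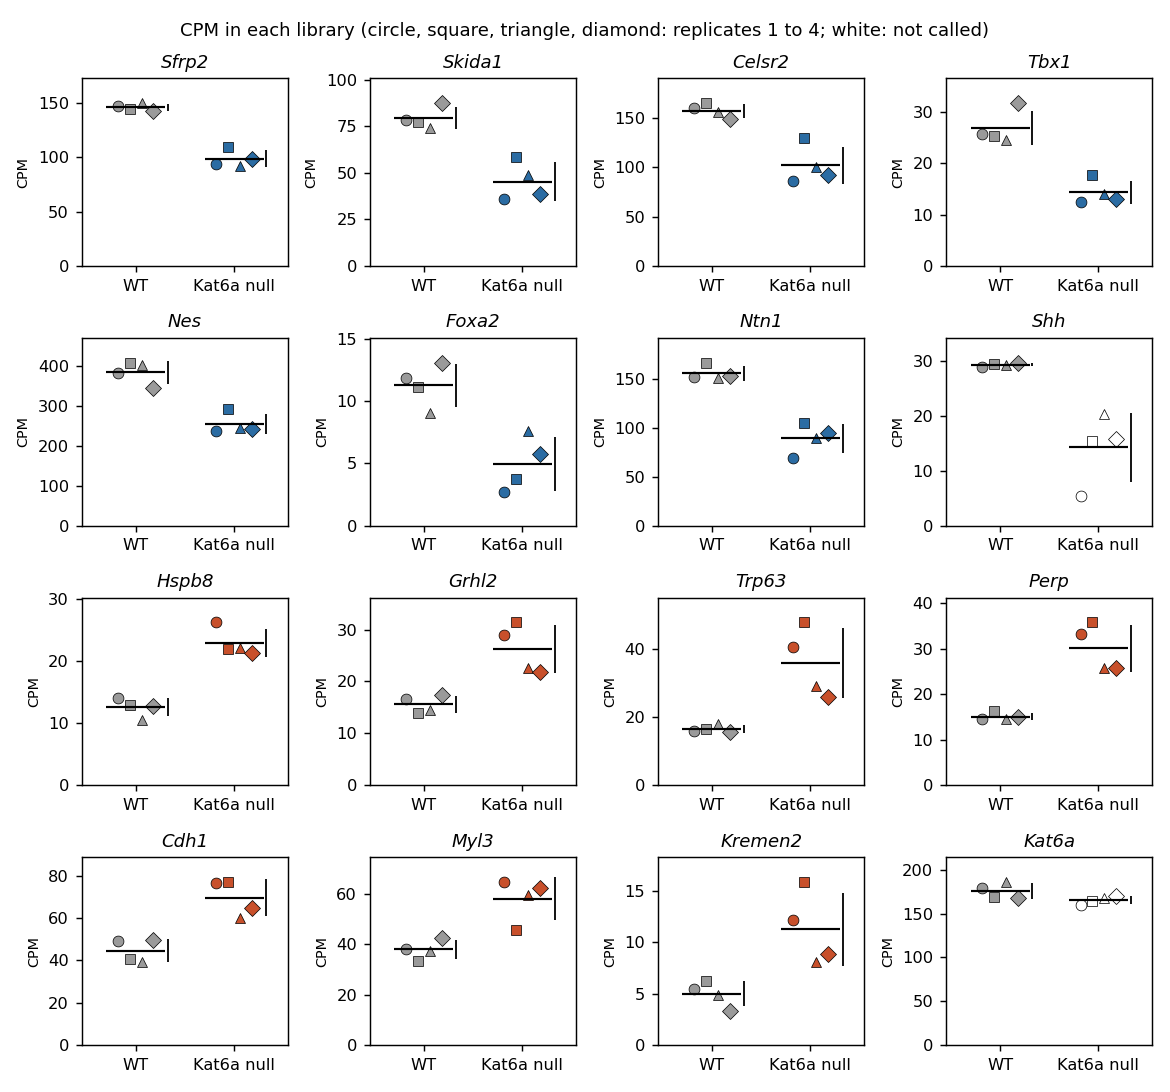
CPM (linear axis from 0) of 16 genes in the 4 WT (grey) and 4 *Kat6a* null libraries, one marker a library, with the mean (line) and SD (bar at the side). Blue marks genes called lower, orange genes called higher and white genes not called, and only *Kat6a* overlaps between the genotypes among those shown.

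Genes of neural progenitors were among those lower in *Kat6a-/-*. Of 20 listed progenitor genes tested, 10 were lower and 1 was higher, with a median log2 fold change of -0.23 against -0.0025 over all genes tested. *Nes*, the intermediate filament nestin, was at 381, 408, 402 and 345 CPM in WT and 237, 291, 244 and 242 CPM in *Kat6a-/-* (log2 fold change -0.53, SE 0.0773, FDR=0.00246). Every *Kat6a-/-* embryo was below every WT embryo. The SoxB1 factors *Sox2* (-0.33, FDR=0.0151) and *Sox3* (-0.47, FDR=0.0059), which keep cells in the progenitor state, were lower, as were *Sox21* (-0.52, FDR=0.0389), *Pax6* (-0.28, FDR=0.043), the receptor *Notch1* (-0.31, FDR=0.00412), *Vim* (-0.22, FDR=0.0051), *Prom1* (-0.21, FDR=0.0242), N-cadherin *Cdh2* (-0.18, FDR=0.0349) and *Nr2f1* (-0.23, FDR=0.029). The exception was *Zic1*, a zinc finger factor of the dorsal neural tube, at 155, 145, 139 and 140.3 CPM in WT and 164, 213, 139 and 148 CPM in *Kat6a-/-* (log2 fold change 0.28, SE 0.063, FDR=0.021), where *Kat6a-/-* replicate 2 stood above the rest.

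The summed level of the listed progenitor genes was 3222, 3332, 3194 and 3025 CPM in WT and 2433, 2975, 2611 and 2551 CPM in *Kat6a-/-*. The groups did not overlap, and *Kat6a-/-* replicate 2 was nearest to WT. In *Kat6b-/-* embryos the sum of these genes was also below every WT library, at 2504 to 2930 CPM. Of these genes 4 were lower without WT replicate 2, 9 without *Kat6a-/-* replicate 2 and 5 or 6 without any other library. With 0 surrogate variables, where calls over all genes fell from 375 to 111, 2 genes of the list were lower and 0 higher. *Nes*, *Notch1*, *Vim* and *Sox3* were called in all 8 such fits, *Sox2* in 5 of 8, and *Pax6* and *Cdh2* in 1 of 8 each.

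Regional identity genes of the hindbrain and spinal cord were lower in part. Of 26 tested, 10 were lower and none was higher (median log2 fold change -0.49). Many of them mark the ventral neural tube. A list of 32 genes of the floor plate and ventral neural tube, put together with these values known and so without weight of its own, held 11 lower and 0 higher genes (median -0.33). *Foxa2*, a forkhead factor of floor plate, notochord and endoderm, was at 11.9, 11.1, 9.05 and 13.1 CPM in WT and 2.74, 3.72, 7.58 and 5.76 CPM in *Kat6a-/-* (log2 fold change -1.03, SE 0.206, FDR=0.0114). *Ntn1*, the axon guidance ligand netrin 1 secreted by the floor plate, was at 153, 167, 151 and 153 CPM in WT and 69.3, 105, 90.3 and 94.5 CPM in *Kat6a-/-* (log2 fold change -0.68, SE 0.113, FDR=0.0059). Neither gene overlapped between the genotypes.

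*Shh*, the floor plate and notochord morphogen, was at 28.98, 29.4, 29.3 and 29.7 CPM in WT and 5.38, 15.5, 20.3 and 15.8 CPM in *Kat6a-/-*. The WT values were within 1 CPM of each other and the *Kat6a-/-* values were all below them, but the gene did not pass the threshold (log2 fold change -0.93, SE 0.237, FDR=0.0511). *Nkx6-1*, a homeobox factor of ventral progenitors, was at 29.6, 34.1, 30.3 and 28.2 CPM in WT and 7.76, 17.1, 15.2 and 18.1 CPM in *Kat6a-/-* (log2 fold change -0.80, SE 0.180, FDR=0.0282). The homeobox genes *Nkx6-2* (-1.05, FDR=0.016), *Nkx2-9* (-0.89, FDR=0.0457) and *Dbx1* (-0.84, FDR=0.022), and the forkhead gene *Foxa1* (-0.74, FDR=0.029) were lower too. The commissural axon receptor *Robo3* (-1.67, FDR=0.0282), *Sim2* (-1.61, FDR=0.0283), *Ferd3l* (-1.46, FDR=0.0214) and the floor plate matrix gene *Spon1* (-0.62, FDR=0.018) completed the 11.

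*Kat6a-/-* replicate 1 was the lowest of all 8 libraries in *Foxa2*, *Ntn1*, *Shh*, *Nkx6-1*, *Nkx6-2*, *Dbx1* and *Spon1*. Without it 9 genes of the ventral list were lower, and without *Kat6a-/-* replicate 2, 10. Without WT replicates 1, 2 and 3 the number was 4, 2 and 3, and it was 7 or 8 without any other library. Of these genes *Foxa2* and *Ntn1* were called in all 8 such fits, *Shh* in 2 of 8. The 10 of the hindbrain and spinal cord list became 3, 3 and 2 without WT replicates 1, 2 and 3, 8 without *Kat6a-/-* replicate 2 and 6 to 8 without the others. With 0 surrogate variables 4 genes of that list and 5 of the ventral list were lower.

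Beyond the ventral midline, the Iroquois factors *Irx1* (-0.32, FDR=0.0393), *Irx3* (-0.23, FDR=0.0187) and *Irx5* (-0.40, FDR=0.00262) were lower, as were *Pax2* (-0.80, FDR=0.0128), of the midbrain-hindbrain boundary, ear and kidney, *Barhl2* (-1.12, FDR=0.0386) and the lens gene *Foxe3* (-0.95, FDR=0.0164). *Irx5* was at 37.4, 39.9, 37.4 and 35.6 CPM in WT and 29.6, 28.5, 24.01 and 27.3 CPM in *Kat6a-/-* and was called in 8 of 8 fits with 1 library left out. *Irx1* was called in 0 of 8.

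**Figure D3:**
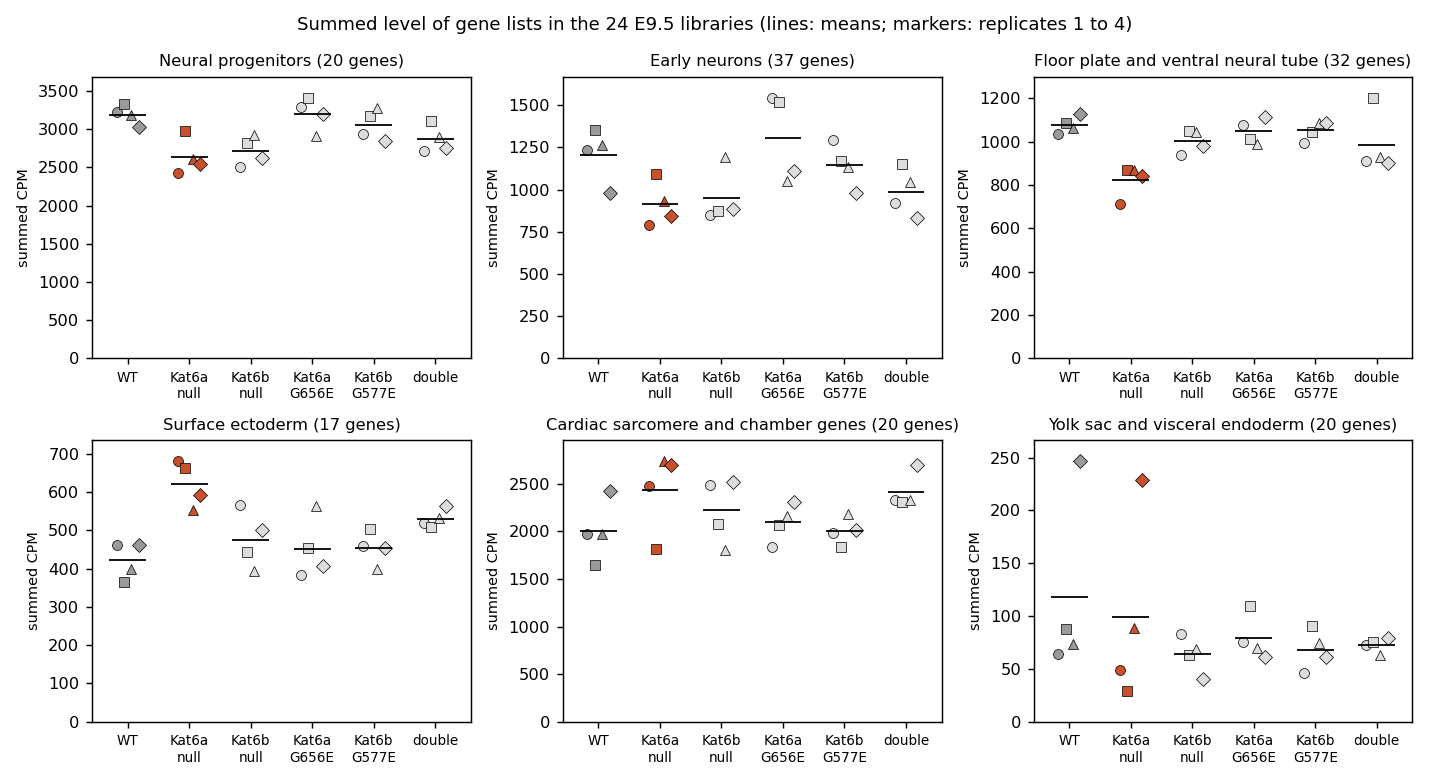
Summed CPM (linear axis from 0) of 6 gene lists in the 24 E9.5 libraries by genotype, one marker a library (circle, square, triangle and diamond for replicates 1 to 4), with the mean as a line. Double stands for *Kat6a* G656E with *Kat6b* G577E. In *Kat6a* null embryos (orange) neural progenitor and ventral neural tube sums lay below all 4 WT libraries (grey) and the surface ectoderm sum above them, while early neuron, heart and yolk sac sums overlapped. In *Kat6b* null all 4 neural progenitor sums (2504 to 2930 CPM) also lay below WT. In double all 4 surface ectoderm sums (509 to 564 CPM) also lay above WT. The ventral neural tube list was put together with its values known, so its position is a description.

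Genes of newly born neurons were lower in part. Of 36 tested, 7 were lower and none was higher (median log2 fold change -0.33). *Elavl4*, a neuronal RNA-binding protein gene, was at 30.4, 34.0, 28.3 and 19.8 CPM in WT and 13.6, 22.4, 20.6 and 17.3 CPM in *Kat6a-/-* (log2 fold change -0.48, SE 0.115, FDR=0.0283). WT replicate 4 was within the *Kat6a-/-* range. The neurofilament gene *Ina* (-0.61, FDR=0.043), *Stmn3* (-0.83, FDR=0.0336), *Scrt2* (-0.80, FDR=0.0369), and the early B-cell factors *Ebf2* (-0.32, FDR=0.044) and *Ebf3* (-0.31, FDR=0.0214), which act in neuronal differentiation, were lower as well. The last 2 are of the proneural list, in which 3 of 16 genes were lower, 3 without *Kat6a-/-* replicate 2 and 1 without *Kat6a-/-* replicate 1 or WT replicate 1, 2 or 3. The summed level of the listed neuron genes, 1233, 1354, 1262 and 978 CPM in WT and 787, 1089, 934 and 845 CPM in *Kat6a-/-*, overlapped between the genotypes. WT replicate 4 was lowest in WT and *Kat6a-/-* replicate 2 highest in *Kat6a-/-*. Without either of these 2 libraries 9 genes of the list were lower, and without any other 2 to 4. The 7 lower genes of the neuron list include *Crmp1* and *Dpysl3*, which are also counted in the collapsin response mediator family below. *Crmp1* and *Dpysl3* were called in all 8 fits with 1 library left out. *Elavl4* was called in 3 of 8, and *Ina*, *Stmn3* and *Scrt2* in 2 of 8 each. The fit with 0 surrogate variables called 2 genes of the neuron list, and 1 of the proneural list.

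The collapsin response mediator genes, which link guidance cues to the growth cone's cytoskeleton, shared a direction: 4 of 5 were lower, namely *Crmp1*, *Dpysl3* (-0.32, FDR=0.00151), *Dpysl4* and *Dpysl5* (-0.24, FDR=0.00689), and 3 or 4 were lower in each fit with 1 library left out (4 without *Kat6a-/-* replicate 2). The number fell to 1 with 0 surrogate variables. *Crmp1* was at 99.8, 122, 104 and 88.2 CPM in WT and 69.1, 87.1, 77.4 and 68.5 CPM in *Kat6a-/-*. In the axon guidance list of 41 genes, *Ntn1*, *Robo3* and *Sema6d* (-0.35, FDR=0.0242) were lower and the secreted semaphorins *Sema3a* (0.30, FDR=0.0173) and *Sema3c* (0.37, FDR=0.00523) were higher. Without *Kat6a-/-* replicate 2 the list held 3 lower and 3 higher genes, without WT replicate 2 it held 1 of each, and without WT replicate 3 it held 1 lower and 2 higher. Without WT replicate 1 it held 3 lower and 1 higher, and without *Kat6a-/-* replicate 1 or 3 or WT replicate 4, 2 of each. It held 1 of each with 0 surrogate variables. *Tubb2b*, a beta-tubulin of neurons (-0.23, FDR=0.00431), and *Actg1* (-0.16, FDR=0.0115) were lower by small amounts, and reads of both can be shared with close paralogues. *Celsr3* (-0.61, FDR=0.0336), a neuronal relative of *Celsr2*, was called in 1 of 8 fits with 1 library left out.

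In the pharyngeal arches and second heart field, 5 of 23 genes tested were lower and none was higher (median log2 fold change -0.17): *Tbx1*, *Six2*, *Foxc2*, *Foxa2* and *Prdm1*. *Six2*, a homeobox factor of head mesenchyme and kidney progenitors, was at 27.2, 29.9, 28.3 and 27.2 CPM in WT and 13.1, 22.0, 16.7 and 19.01 CPM in *Kat6a-/-* (log2 fold change -0.60, SE 0.0988, FDR=0.00183). *Foxc2*, a forkhead factor of mesoderm and neural crest, was at 40.6, 47.4, 43.7 and 50.9 CPM in WT and 26.6, 28.0, 32.8 and 31.4 CPM in *Kat6a-/-* (log2 fold change -0.56, SE 0.0973, FDR=0.00352). In both genes the groups were apart. The list held 4 or 5 lower genes in each fit with 1 library left out, and 5 without *Kat6a-/-* replicate 2. *Prdm1* (-0.54, FDR=0.0119) encodes a zinc finger repressor.

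Forkhead genes were lower in 7 of 37 tested, with a list median of -0.04: *Foxc2*, *Foxa1*, *Foxa2*, *Foxe3*, *Foxf1* (-0.75, FDR=0.0111), *Foxf2* (-0.48, FDR=0.0354) and *Foxl1* (-0.77, FDR=0.0185). The count was 5 without *Kat6a-/-* replicate 2, 4 without WT replicate 1, 2 or 3, 3 without WT replicate 4, 5 or 6 without any other library and 4 with 0 surrogate variables. *Foxf1*, *Foxf2* and *Foxl1* are expressed in the mesenchyme around the gut. In a list of 24 genes of gut tube mesenchyme and splanchnic mesoderm, again put together with the values known, 7 were lower and 0 higher, the others being *Barx1* (-0.86, FDR=0.0133), a homeobox factor of stomach and facial mesenchyme, *Hlx* (-0.69, FDR=0.0059), *Tbx5* (-0.44, FDR=0.0263), a T-box factor of heart and forelimb, and *Prdm1*. *Foxf1* was at 23.7, 34.0, 38.0 and 33.2 CPM in WT and 22.1, 10.6, 22.9 and 28.6 CPM in *Kat6a-/-*; *Kat6a-/-* replicate 2 was the lowest and replicate 4 was within the WT range. Only 2 of these genes were lower without *Kat6a-/-* replicate 2, without WT replicate 3 or without WT replicate 4, 3 without WT replicate 1 or 2, and 7 or 8 without any other, and 2 with 0 surrogate variables. *Barx1* was at 20.8, 23.8, 22.8 and 18.01 CPM in WT and 12.5, 12.4, 12.98 and 11.9 CPM in *Kat6a-/-*. Its groups did not overlap.

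Among 12 anterior Hox genes (paralogue groups 1 to 4), which set segment identity in hindbrain and pharyngeal arches, 3 were lower and 1 was higher, and 11 had a negative fitted change (median -0.25). *Hoxa2* was at 22.7, 22.6, 28.2 and 24.2 CPM in WT and 16.1, 18.8, 14.2 and 16.6 CPM in *Kat6a-/-* (log2 fold change -0.50, SE 0.102, FDR=0.00952). Its values did not overlap. *Hoxb1* was lower as well (-0.43, FDR=0.044), and *Hoxd1* was higher (0.67, FDR=0.0336). The list held 4 lower and 0 higher genes without *Kat6a-/-* replicate 2 and 1 lower gene without any other of the 8 libraries or with 0 surrogate variables. None of 11 trunk Hox genes (groups 5 to 8, median 0.08) and none of 15 posterior Hox genes (groups 9 to 13, median 0.17) was called. With 2.64% of all genes tested called, lists this short often hold no called gene.

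Some genes of the surface ectoderm were higher. Of 17 tested, 6 passed the threshold, all of them higher, all 17 had a positive fitted change and the median log2 fold change was 0.40. *Trp63*, the p53 relative that specifies stratified epithelium, was at 16.002, 16.5, 18.02 and 15.5 CPM in WT and 40.6, 47.8, 29.2 and 25.8 CPM in *Kat6a-/-* (log2 fold change 0.92, SE 0.199, FDR=0.025). *Grhl2*, a grainyhead factor that controls junction genes, was at 16.6, 13.98, 14.46 and 17.3 CPM in WT and 29.03, 31.4, 22.7 and 21.9 CPM in *Kat6a-/-* (log2 fold change 0.70, SE 0.131, FDR=0.00615). In both genes every *Kat6a-/-* embryo was above every WT embryo, and *Kat6a-/-* replicates 1 and 2 were the highest. E-cadherin *Cdh1* was at 49.0, 40.6, 39.3 and 49.5 CPM in WT and 76.7, 77.0, 59.98 and 64.6 CPM in *Kat6a-/-* (log2 fold change 0.52, SE 0.123, FDR=0.0336). *Epcam* (0.43, FDR=0.0319), the keratin gene *Krt18* (0.36, FDR=0.0286) and the epithelial splicing regulator *Esrp1* (0.40, FDR=0.0386) were the others. *Cdh1*, *Epcam* and *Krt18* are general epithelial genes and also stand in a list of gut and foregut endoderm, where they were the 3 higher genes of 26 tested (list median -0.23). Its 4 lower genes were *Foxa1*, *Foxa2*, *Sox2* and *Barx1*. The endoderm list held 3 lower and 4 higher genes without *Kat6a-/-* replicate 2, 1 to 5 lower and 0 to 4 higher with 1 library left out, and 2 of each with 0 surrogate variables. It held 0 higher genes without *Kat6a-/-* replicate 1 or WT replicate 2 or 3, 1 without WT replicate 1, 1 lower without WT replicate 2 or 4 and 2 lower without WT replicate 1 or 3.

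The summed level of the surface ectoderm list was 461, 366, 400.2 and 461 CPM in WT and 681, 663, 553 and 592 CPM in *Kat6a-/-*. The genotypes did not overlap. In embryos with both *Kat6a* G656E and *Kat6b* G577E the sum was also above every WT library, at 509 to 564 CPM. The number of higher genes was 2 without *Kat6a-/-* replicate 1, 2, 1 and 2 without WT replicates 1, 2 and 3, and 5 to 7 without any other, among them 6 without *Kat6a-/-* replicate 2. With 0 surrogate variables it was 5. *Grhl2* was called in all 8 such fits and *Trp63* in 6 of 8.

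Genes of epithelial junctions, keratins and epithelial regulators were gathered in a list of 70 after these values were seen, and of the 67 tested 28 were higher and 0 were lower, with a median log2 fold change of 0.45. *Perp*, a desmosomal protein gene, was at 14.6, 16.3, 14.46 and 14.9 CPM in WT and 33.2, 35.8, 25.8 and 25.7 CPM in *Kat6a-/-* (log2 fold change 0.84, SE 0.147, FDR=0.00528). The tight junction gene *Tjp3* was at 8.82, 6.77, 7.36 and 7.24 CPM in WT and 15.8, 15.4, 11.2 and 11.4 CPM in *Kat6a-/-* (log2 fold change 0.81, SE 0.137, FDR=0.00247). Both were apart between genotypes and called in all 8 fits with 1 library left out. *Mpzl2* (0.79, FDR=0.00262), an epithelial adhesion gene, *Ezr* (0.31, FDR=0.00431), which ties actin to the membrane, *Prom2* (0.93, FDR=0.00964), *Kdf1* (0.80, FDR=0.00771), a keratinocyte differentiation gene, *Trim29* (0.95, FDR=0.0133) and the protease gene *Prss22* (1.26, FDR=0.0135) were also higher. The 28 became 12 without WT replicate 2 or 3, 17 without WT replicate 1, 19 without *Kat6a-/-* replicate 2 and 23 to 34 without any other, and 27 with 0 surrogate variables. Since the list was made from these values, its count is a description.

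Promoter sequence was read for called genes because genes of shared function were called in one direction. In the 250 bases before the start of the canonical transcript (GENCODE vM39, GRCm39), the median number of CpG pairs was 12 for 195 lower genes, 11 for 179 higher genes and 12 for 14093 genes tested. The median ratio of observed to expected CpG was 0.594, 0.519 and 0.642 in the same order. The promoters of *Sfrp2* and *Tbx1*, lower in *Kat6a-/-*, and of *Perp*, higher in *Kat6a-/-*, are shown as examples, 5′ to 3′ on the coding strand with each CpG in capitals. They lie at chr3:83673231-83673480 (plus strand), chr16:18405720-18405969 (minus) and chr10:18720465-18720714 (plus), and hold 28, 48 and 10 CpG. The counts of *Sfrp2* and *Tbx1* lie above the upper quartile of the lower genes (18 CpG), so both are untypical of that set. The count of *Perp* is near the median of the higher genes. The examples therefore do not stand for a difference between the sets.
Sfrp2: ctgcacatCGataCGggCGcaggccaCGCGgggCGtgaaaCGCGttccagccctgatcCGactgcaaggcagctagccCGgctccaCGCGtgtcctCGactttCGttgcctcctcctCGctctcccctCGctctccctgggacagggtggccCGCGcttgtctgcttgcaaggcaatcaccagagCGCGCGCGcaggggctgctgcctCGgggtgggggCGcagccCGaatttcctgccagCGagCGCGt
Tbx1: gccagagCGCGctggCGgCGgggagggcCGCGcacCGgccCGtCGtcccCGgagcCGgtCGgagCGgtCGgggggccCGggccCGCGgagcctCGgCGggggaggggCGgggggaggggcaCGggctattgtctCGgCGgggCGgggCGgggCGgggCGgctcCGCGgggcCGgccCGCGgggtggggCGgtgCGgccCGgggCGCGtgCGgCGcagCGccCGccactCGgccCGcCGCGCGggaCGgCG
Perp: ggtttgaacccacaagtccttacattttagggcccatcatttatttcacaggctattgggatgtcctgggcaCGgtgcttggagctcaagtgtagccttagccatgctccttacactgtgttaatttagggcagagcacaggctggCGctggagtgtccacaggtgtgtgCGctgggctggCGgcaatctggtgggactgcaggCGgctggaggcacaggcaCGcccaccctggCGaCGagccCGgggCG

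As *Grhl2* was itself higher, the windows were searched on both strands for AACCNGTT, a form of the grainyhead motif, and it was found in 241 (1.71%) of the 14093 windows. It was in 6 (3.35%) of the 179 windows of higher genes and in 0 of the 195 windows of lower genes. The exact palindrome AACCGGTT, which the first motif includes, was in 22 (0.16%) of all windows, 1 of the higher and 0 of the lower ones. The forkhead motif TGTTTAC was in 326 (2.31%) of all windows, 5 (2.56%) of the lower and 2 (1.12%) of the higher ones. A match is a run of letters and not a measured binding site. The 6 genes were *Trim29*, *Prss22*, *Fat2* (0.93, FDR=0.0301), an atypical cadherin gene, *Arhgef16* (0.51, FDR=0.0214), *Arhgef19* (0.52, FDR=0.0492) and *Epn3* (0.52, FDR=0.0488). The windows of *Trim29* (chr9:43221835-43222084, plus), *Fat2* (chr11:55227484-55227733, minus) and *Prss22* (chr17:24217075-24217324, minus), the 3 with the largest changes, are shown with the match in capitals. It begins 212, 95 and 140 bases before the start.
Trim29: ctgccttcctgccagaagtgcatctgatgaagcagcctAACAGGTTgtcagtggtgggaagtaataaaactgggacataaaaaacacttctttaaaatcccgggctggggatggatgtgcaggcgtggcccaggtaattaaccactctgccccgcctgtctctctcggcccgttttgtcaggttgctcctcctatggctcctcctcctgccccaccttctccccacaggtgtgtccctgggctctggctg
Fat2: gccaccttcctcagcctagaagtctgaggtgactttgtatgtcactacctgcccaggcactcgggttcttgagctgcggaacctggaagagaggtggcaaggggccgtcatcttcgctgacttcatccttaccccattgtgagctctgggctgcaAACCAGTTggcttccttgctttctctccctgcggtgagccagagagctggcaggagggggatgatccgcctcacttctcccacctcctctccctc
Prss22: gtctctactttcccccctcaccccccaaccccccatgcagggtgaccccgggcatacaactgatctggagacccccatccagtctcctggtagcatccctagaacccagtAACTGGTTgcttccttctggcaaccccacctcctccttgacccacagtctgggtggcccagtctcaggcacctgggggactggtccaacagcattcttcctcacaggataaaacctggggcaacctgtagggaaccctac

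Genes of the heart muscle were higher in part. Of 20 sarcomere and chamber genes, 4 were higher and 0 lower (median log2 fold change 0.27). *Myl3*, a myosin light chain gene of the ventricle, was at 38.1, 33.5, 37.5 and 42.6 CPM in WT and 64.8, 45.8, 59.7 and 62.2 CPM in *Kat6a-/-* (log2 fold change 0.59, SE 0.108, FDR=0.00744). The groups were apart. The ventricular light chain gene *Myl2* (0.60, FDR=0.0459) and the troponin genes *Tnni1* (0.38, FDR=0.0277) and *Tnnc1* (0.43, FDR=0.0411) were the other 3. The summed level of the list, 1969, 1651, 1969.8 and 2428 CPM in WT and 2479.9, 1814, 2736 and 2696 CPM in *Kat6a-/-*, overlapped, with *Kat6a-/-* replicate 2 lowest in its group. The count was 6 without *Kat6a-/-* replicate 2, 3 without *Kat6a-/-* replicate 1, 2 without *Kat6a-/-* replicate 4, 1 without *Kat6a-/-* replicate 3 or WT replicate 1 or 4, and 0 without WT replicate 2 or 3. It was 2 with 0 surrogate variables. Of 17 cardiac transcription factor genes, *Tbx5* was lower and none was higher, and 0 were called by limma without *Kat6a-/-* replicate 2 or 3 or WT replicate 2, 3 or 4, or with 0 surrogate variables.

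The higher genes with the smallest p were *Hspb8*, a small heat shock protein gene, and *Flrt3*, a fibronectin leucine-rich transmembrane adhesion gene. *Hspb8* was at 14.01, 12.9, 10.6 and 12.7 CPM in WT and 26.3, 22.0, 22.2 and 21.4 CPM in *Kat6a-/-* (log2 fold change 0.70, SE 0.101, FDR=0.000429). *Flrt3* was at 79.0, 69.2, 78.7 and 87.8 CPM in WT and 104, 89.2, 96.5 and 99.9 CPM in *Kat6a-/-* (log2 fold change 0.32, SE 0.0462, FDR=0.000434). Both sets of values were apart. Beside *Tjp3*, *Mpzl2* and *Ezr*, the first 10 included *Pygl* (0.58, FDR=0.00262), the liver form of glycogen phosphorylase, *Arap1* (0.40, FDR=0.00264), *Etl4* (0.32, FDR=0.00293), *Cep170b* (0.45, FDR=0.00431) and *Plekha2* (0.62, FDR=0.00431). All 10 were called in each fit with 1 library left out. *Kremen2*, a Dickkopf receptor gene, was at 5.45, 6.26, 4.91 and 3.32 CPM in WT and 12.2, 15.9, 8.05 and 8.90 CPM in *Kat6a-/-* (log2 fold change 0.98, SE 0.201, FDR=0.0105), with *Kat6a-/-* replicate 2 the highest.

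The largest fold changes were of genes with few counts. *Ces1d*, a carboxylesterase gene, was at 0.259, 0.0857, 0.169 and 0.590 CPM in WT and 1.85, 0.930, 1.17 and 1.17 CPM in *Kat6a-/-* (log2 fold change 1.96, SE 0.414, FDR=0.0115), and *Serpina1c*, of the alpha-1-antitrypsin cluster, at 0.692, 1.46, 0.930 and 1.02 CPM in WT and 0.176, 0, 0.156 and 1.03 CPM in *Kat6a-/-* (log2 fold change -1.93, SE 0.489, FDR=0.0334). Both belong to clusters of close paralogues between which reads may be split. *Adgra1* (-1.49, FDR=0.043) was lower, and *Mrc1* (1.06, FDR=0.0495), a macrophage receptor gene, and *Th* (1.02, FDR=0.0295), tyrosine hydroxylase, were higher. These 5 genes were called in 1 (*Adgra1* and *Mrc1*) to 5 (*Ces1d*) of the 8 fits with 1 library left out.

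Signalling genes were called in both directions. In the Wnt list of 61 genes, *Sfrp2*, *Sfrp1* (-0.32, FDR=0.0153), *Fzd9* (-0.48, FDR=0.0347) and *Apc2* (-0.42, FDR=0.0259) were lower, and *Wnt9a* (0.76, FDR=0.00615), *Rnf43* (0.83, FDR=0.0153) and *Rspo3* (0.41, FDR=0.0408) were higher. *Wnt9a* was at 6.23, 4.63, 6.01 and 7.07 CPM in WT and 11.3, 11.7, 8.84 and 8.66 CPM in *Kat6a-/-*. Its groups were apart. The Wnt list held 3 lower and 1 higher genes without *Kat6a-/-* replicate 2. It held 1 lower gene without WT replicate 1, 2 or 3, 2 without WT replicate 4 or *Kat6a-/-* replicate 1, and 3 or 4 without *Kat6a-/-* replicate 3 or 4. Its higher genes were 5 without *Kat6a-/-* replicate 4, 1 without *Kat6a-/-* replicate 2 or WT replicate 3 and 2 without any other library. The fit with 0 surrogate variables called 2 in each direction. *Fzd9* was called in 1 of 8 fits with 1 library left out, *Rspo3* in 2 of 8 and *Apc2* in 3 of 8. In the Notch list of 25, *Notch1* and *Lfng* (-0.30, FDR=0.00745), a glycosyltransferase of Notch, were lower and the ligand gene *Jag2* (0.56, FDR=0.0389) was higher. The Notch list held 3 lower genes without *Kat6a-/-* replicate 2 or WT replicate 1 and 2 without any other, and 1 gene was higher only without *Kat6a-/-* replicate 2 or 4. In the Hedgehog list of 21, *Foxa2*, *Foxf1* and *Sufu* (-0.18, FDR=0.0111), a negative regulator of the pathway, were lower. The Hedgehog list held 2 lower genes without *Kat6a-/-* replicate 2 or WT replicate 2, 5 without *Kat6a-/-* replicate 1 or 3, and 3 or 4 without any other. *Msx2* (0.35, FDR=0.0319) and *Six4* (0.25, FDR=0.0484) were higher, and *Ednrb* (-0.50, FDR=0.0153), the endothelin receptor of neural crest, was lower.

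No gene was called among 28 FGF, 29 BMP and TGF-beta, 19 retinoic acid pathway, 18 tail bud, 12 LIM homeobox, 17 yolk sac, 20 haematopoietic and 18 imprinted growth genes, nor among 78 cytoplasmic ribosomal protein genes (median -0.06) and 28 hypoxia and glycolysis genes (median 0.16). Some of these lists still leaned to 1 side. Of the LIM homeobox genes 11 of 12 had a negative fitted change (median -0.32), 6 at an unadjusted limma p below 0.05. Of the tail bud genes 16 of 18 had a positive one (median 0.28), 4 at that p. In all, 15 lists with 335 tested genes, the trunk and posterior Hox, Hox cofactor, KAT6 complex and erythroid lists included, held 0 genes called by limma, 2 called by edgeR and 60 at an unadjusted limma p below 0.05. Over all genes 2399 were below that p. All 19 erythroid genes had a positive fitted change (median 0.37), but their summed level was 6119, 6163, 6408 and 4162 CPM in WT and 4982, 5757, 11353 and 8877 CPM in *Kat6a-/-*. *Kat6a-/-* replicates 3 and 4 stood above all WT libraries and the other *Kat6a-/-* libraries did not. The replication list held 3 lower genes of 26, the helicase subunits *Mcm4*, at 368, 359, 371 and 374 CPM in WT and 329, 317, 315 and 323 CPM in *Kat6a-/-*, *Mcm5* (-0.16, FDR=0.0059) and *Mcm7* (-0.12, FDR=0.0482), and held 2 to 4 lower genes with 1 library left out (4 without *Kat6a-/-* replicate 2) and 1 with 0 surrogate variables. In the endothelium, *Egfl7* (-0.22, FDR=0.0334) and *Gja4* (-0.48, FDR=0.0403) were lower of 24 genes, and 0 without *Kat6a-/-* replicate 2 or 3 or any WT library, 1 without *Kat6a-/-* replicate 1 and 4 without *Kat6a-/-* replicate 4. Of the 24, 22 had a negative fitted change (median -0.22). Their summed level was 1277 to 1324 CPM in WT and 1068 to 1256 CPM in *Kat6a-/-*, with *Kat6a-/-* replicate 2 the lowest. *Cdkn2c* (0.79, FDR=0.0271), a CDK inhibitor gene, *Dnajb9* (0.35, FDR=0.0395), of endoplasmic reticulum stress, and *Cryab* (0.32, FDR=0.048) were higher. With 1 library left out *Dnajb9* was called in 0 of 8 fits, and *Cdkn2c* and *Cryab* in 2 of 8 each.

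**Figure D4:**
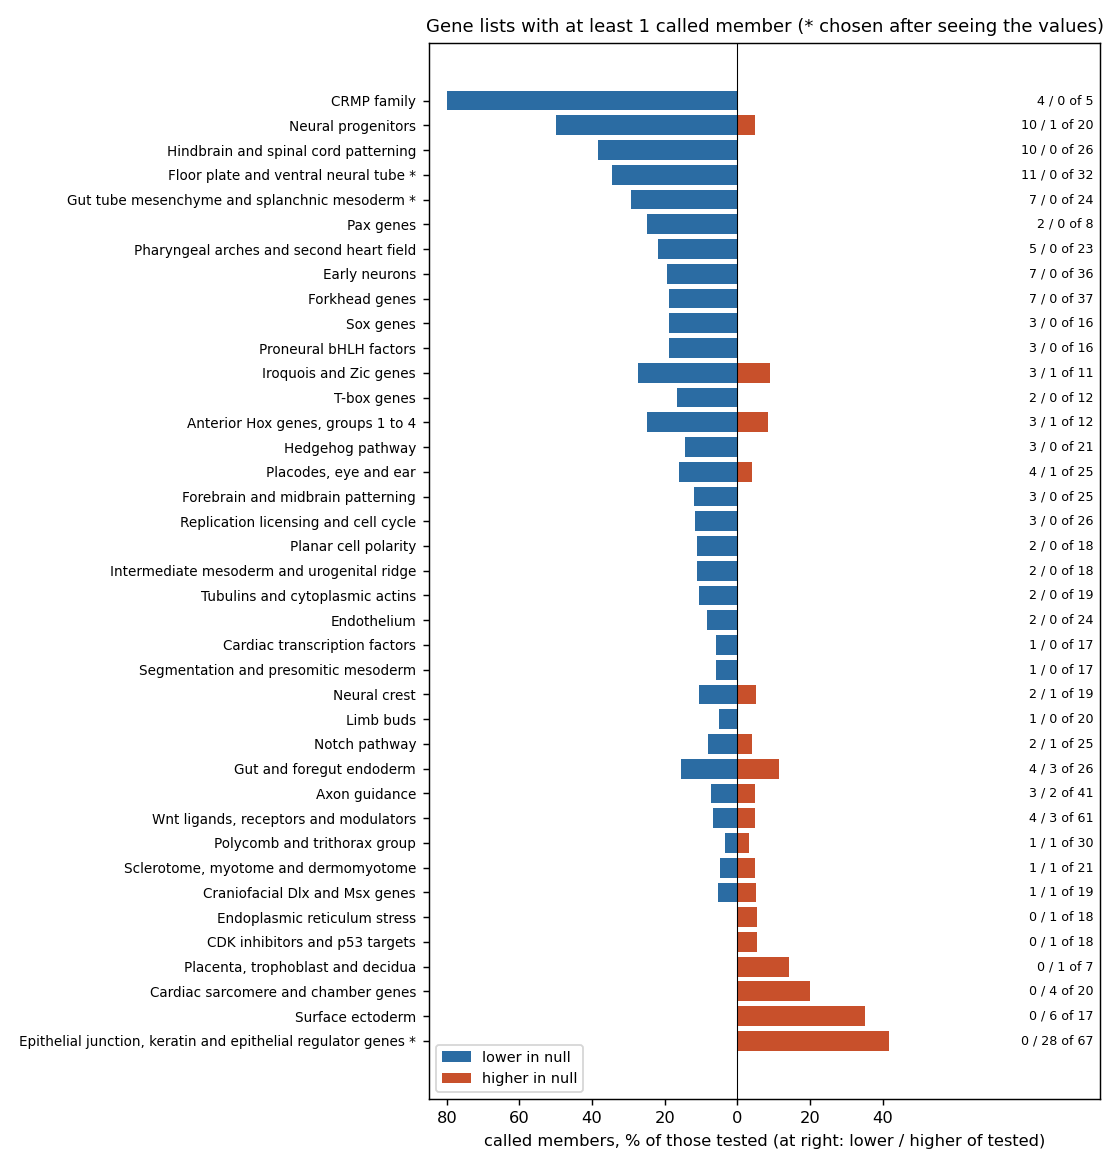
Share of the tested members of each gene list that was called lower (blue, to the left) or higher (orange, to the right) in *Kat6a* null embryos, in percent, with the counts at the right edge. Lists with no called member are left out, and an asterisk marks lists chosen with the values known. Neural, pharyngeal and forkhead lists lie to the left and surface ectoderm, heart muscle and epithelial lists to the right, beside 1.38% lower and 1.26% higher over all genes.

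Around the mutated gene, 56 genes within 5 Mb of *Kat6a* were tested and 2 were called: *Sfrp1*, 0.47 Mb away and lower, and *Plekha2*, 2.1 Mb away and higher. Over all genes tested 2.64% were called. The groups did not overlap in 5 of the 56, beside 11.9% of all genes tested. The median log2 fold change of the 56 was -0.02. *Skida1* and *Commd3* both lie on chromosome 2. *Skida1* was lower, while *Commd3* was higher, at 21.6, 22.5, 25.6 and 22.4 CPM in WT and 34.0, 25.2, 32.4 and 33.2 CPM in *Kat6a-/-* (log2 fold change 0.33, SE 0.0699, FDR=0.0129), with *Kat6a-/-* replicate 2 in the WT range.

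*Kat6a-/-* embryos were compared directly with *Kat6b-/-* embryos. No litter held both of these genotypes, so genotype and litter cannot be told apart in this comparison. Of the 14183 genes, 232 (1.64%) differed, 96 lower and 136 higher in *Kat6a-/-*. *Xist* was above 100 CPM in 2 of the 4 *Kat6b-/-* libraries as well. *Pde3b*, a phosphodiesterase gene, was at 70.7 ± 2.95 CPM in WT (mean ± SD of 4 libraries, here and below), 59.5 ± 1.88 in *Kat6a-/-* and 76.0 ± 3.68 in *Kat6b-/-* (*Kat6a-/-* over *Kat6b-/-* -0.34, SE 0.0523, FDR=0.00341). *Fgfbp3*, a gene for an FGF carrier protein, had means of 15.6 ± 1.37 CPM in *Kat6a-/-*, 26.2 ± 4.08 in *Kat6b-/-* and 27.1 ± 0.674 in the WT group (-0.72, SE 0.112, FDR=0.00341). In both genes the *Kat6a-/-* mean was the lowest of the 3. *Skida1* (-0.53, SE 0.0803, FDR=0.00341) was lower, and *Commd3* (0.45, SE 0.0701, FDR=0.00341) and *Ajuba* (0.34, SE 0.0511, FDR=0.00341), a LIM domain scaffold of junctions, were higher in *Kat6a-/-* than in *Kat6b-/-*; *Ajuba* was not called against WT (log2 fold change 0.11, SE 0.0502, FDR=0.26).

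Among the neural and epithelial genes above, *Foxa2* (*Kat6a-/-* over *Kat6b-/-* -0.99, SE 0.210, FDR=0.0266), *Ntn1* (-0.53, SE 0.115, FDR=0.0343), *Bhlhe22* (-1.28, SE 0.221, FDR=0.00493), *Grhl2* (0.57, SE 0.127, FDR=0.0302) and *Perp* (0.63, SE 0.142, FDR=0.0331) differed between the null genotypes. *Dpysl4* (-0.13, SE 0.0681, FDR=0.312), *Vim* (-0.03, SE 0.0425, FDR=0.777) and *Tubb2b* (0.07, SE 0.0432, FDR=0.442) did not pass. The number of genes that differed was 33, 60, 110 and 134 without *Kat6a-/-* replicates 1 to 4, and 477, 77, 30 and 99 without *Kat6b-/-* replicates 1 to 4, so it depended on single libraries.

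The comparison with *Kat6a* G656E embryos sets loss of KAT6A beside a change in its acetyltransferase domain alone. Here too no litter held both genotypes, so genotype and litter cannot be told apart. The comparison held 227 genes (1.6%), 138 lower and 89 higher in *Kat6a-/-*. The mean of *Celsr2* was 102 ± 19.05 CPM in *Kat6a-/-*, against 174 ± 18.9 in *Kat6a* G656E and 157 ± 7.04 in the WT group (*Kat6a-/-* over *Kat6a* G656E -0.63, SE 0.0626, FDR=5.52e-06). The *Kat6a* G656E mean was the highest and the *Kat6a-/-* mean the lowest. *Sfrp2* (-0.37, SE 0.0561, FDR=0.00141), *Apc2* (-0.77, SE 0.0995, FDR=0.000238), a neuronal relative of the Wnt regulator APC, and *Cemip2* (-0.30, SE 0.0396, FDR=0.00032), a hyaluronidase gene, were lower in *Kat6a-/-* than in *Kat6a* G656E, and the gap junction gene *Gja1* (0.27, SE 0.0377, FDR=0.000602) was higher.

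*Nes* (-0.57, SE 0.0798, FDR=0.00247), *Notch1* (-0.35, SE 0.0588, FDR=0.0026), *Ntn1* (-0.58, SE 0.117, FDR=0.0242), *Spon1* (-0.63, SE 0.131, FDR=0.0261) and *Barx1* (-0.95, SE 0.174, FDR=0.00974) were lower, and *Grhl2* (0.51, SE 0.128, FDR=0.0469), *Perp* (0.56, SE 0.141, FDR=0.0477) and *Msx2* (0.48, SE 0.0906, FDR=0.00857) higher, in *Kat6a-/-* than in *Kat6a* G656E. *Six2* (-0.27, SE 0.103, FDR=0.179), *Hspb8* (0.33, SE 0.0957, FDR=0.0777) and *Commd3* (0.02, SE 0.0687, FDR=0.915) did not pass. The count was 142, 116, 181 and 177 without *Kat6a-/-* replicates 1 to 4 and 141, 112, 395 and 142 without *Kat6a* G656E replicates 1 to 4.

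**Figure D5:**
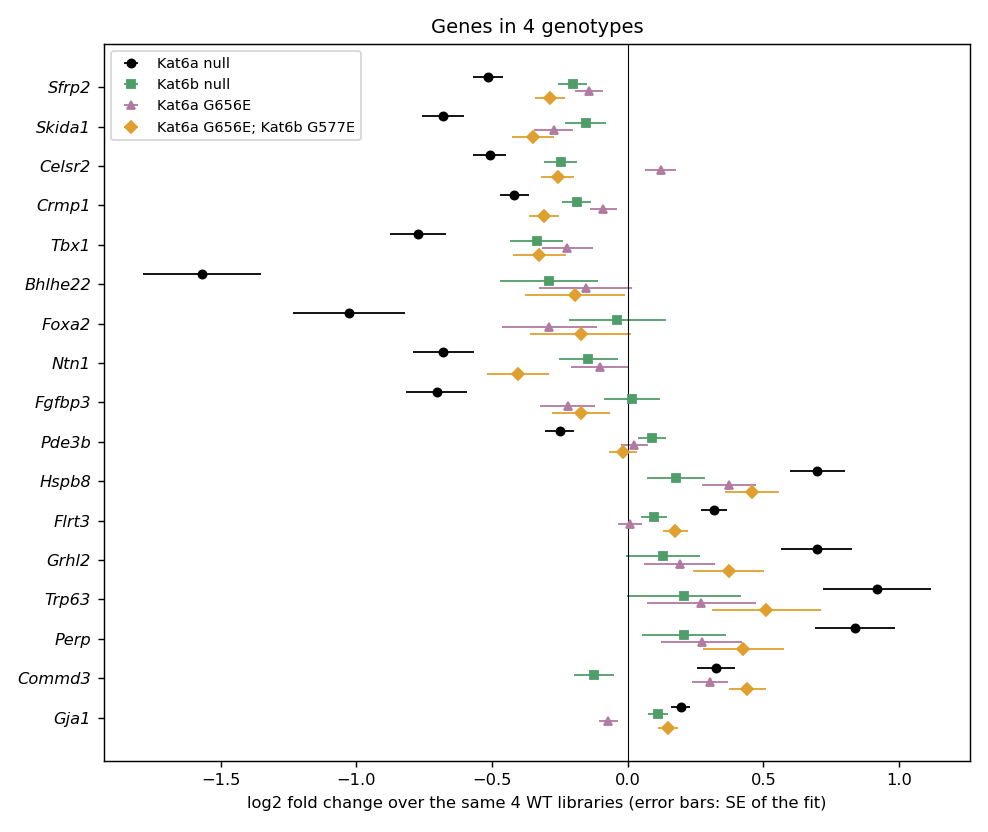
Log2 fold change over WT of 17 genes in *Kat6a* null, *Kat6b* null, *Kat6a* G656E and *Kat6a* G656E; *Kat6b* G577E embryos (4 libraries each), with SE bars. The 4 genotypes share the same WT libraries. *Kat6a* null values (black) lie farthest from 0 for all genes shown but *Commd3*, which lies below 0 only in *Kat6b* null. The genes were chosen for calls in comparisons that hold *Kat6a* null, so its position was fixed in part by that choice.

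For the genes plotted by genotype, the log2 fold change over the shared WT libraries of *Sfrp2* was -0.51 (SE 0.0541) in *Kat6a-/-*, -0.20 (SE 0.0534) in *Kat6b-/-* and -0.14 (SE 0.0511) in *Kat6a* G656E. That of *Tbx1* was -0.77 (SE 0.103) in *Kat6a-/-*, -0.34 (SE 0.0981) in *Kat6b-/-* and -0.22 (SE 0.093) in *Kat6a* G656E, that of *Trp63* 0.92 (SE 0.199) in *Kat6a-/-*, 0.21 (SE 0.209) in *Kat6b-/-* and 0.27 (SE 0.200) in *Kat6a* G656E and that of *Foxa2* -1.03 (SE 0.206) in *Kat6a-/-*, -0.04 (SE 0.179) in *Kat6b-/-* and -0.29 (SE 0.174) in *Kat6a* G656E. In these 4 genes the *Kat6a-/-* value was the farthest from 0. They were chosen for their calls in *Kat6a-/-*, so this order was fixed in part by that choice. *Tbx1* differed between *Kat6a-/-* and both other genotypes (over *Kat6b-/-* -0.44, SE 0.107, FDR=0.0364, over *Kat6a* G656E -0.55, SE 0.108, FDR=0.00893), and *Trp63* did not pass in either comparison (over *Kat6b-/-* 0.71, SE 0.190, FDR=0.0684, over *Kat6a* G656E 0.65, SE 0.190, FDR=0.101).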

How the data were processed

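Whole E9.5 embryos were profiled by RNA-sequencing (RNeasy Mini RNA, unstranded TruSeq libraries, paired-end reads). The deposited values are counts, which the authors made by aligning reads to mm39 with Rsubread and counting read pairs over RefSeq genes with featureCounts (versions not given in the sources used here). Without strand, overlapping genes on opposite strands cannot be separated. Of 26411 genes, 26359 matched a RefSeq table, 21030 were protein-coding and 14183 passed the count filter in the 24 E9.5 libraries. They were fitted with limma's voomLmFit with TMM scaling, 4 surrogate variables, litter as random block (correlation 0.107) and robust empirical Bayes moderation, with Benjamini-Hochberg FDR below 0.05 over all 14183 genes (R 4.3.3, limma 3.58.1, edgeR 4.0.16, DESeq2 1.42.0). Groups came from the labels. On simulated data of this size the voom fit recovered 63 of 100 genes changed by 0.5 log2 and 86 of 100 changed by 1, with 5 false calls. The simulated counts were independent between libraries and genes, without litter, sex or other shared variation. These rates therefore do not give the error rates in the embryos.

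Named genes were *Kat6a* and *Kat6b*, the 10 called genes with the smallest p and the 5 with the largest change in each direction, up to 8 called members of each list, called genes within 5 Mb of *Kat6a*, and the first 5 of each direct contrast. The rule also took the most abundant members of lists with few calls, which are not printed, and some genes it took are not reported here. *Nkx2-9*, *Cdh2*, *Shh*, *Perp*, *Hlx*, *Spon1*, *Ferd3l*, *Trim29*, *Prom2*, *Kdf1*, *Fat2*, *Arhgef16*, *Epn3* and *Arhgef19* fall outside it and were chosen after their values were seen. The samples compared, the gene lists and the rule were chosen with earlier results of these data known. Some named genes share exonic sequence with other genes of the GENCODE vM39 annotation, for example *Sox2* (59.9% of its exon length), *Cryab* (42.2%), *Mpzl2* (37.4%), *Gja4* (31.8%), *Hoxa2* (24.9%), *Shh* (22.6%) and *Sfrp2* (21.0%). The counts were made over RefSeq genes, so reads there may be unassigned only where RefSeq also holds the other gene, which was not tested. Same-numbered replicates deviated from their group means with correlations of 0.0216 to 0.275, and nothing in the labels ties the numbers to a shared origin. Alternatives were 0, 2 or 6 surrogate variables, no litter block, edgeR, DESeq2, other size factors, no filter, all gene types, the 8 libraries alone, a replicate block, each library left out and, added after seeing the data, *Xist* as a covariate.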

Additional observations from a re-analysis of the deposited data

Results flagged for a closer look

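In 19 of 258 groups of 4 libraries examined, 1 library lay apart from the other 3 by more than Dixon's critical value for 4 samples, which chance gives in about 1 of 20 groups. *Kat6a-/-* replicate 2 was apart in *Gprin1* (21.3 CPM), *Nes* (291), *Notch1* (123), *Stmn3* (5.64) and *Scrt2* (5.51), each above the other *Kat6a-/-* libraries. It was also apart in the Y-linked sum, at 0.199 CPM, and held *Xist* at 525 CPM, in a library of an embryo stated to be male. *Kat6a-/-* replicate 1 was apart in *Hspb8* (26.3 CPM), *Dbx1* (5.9997) and *Sema3a* (102.9), *Kat6a-/-* replicate 3 in *Mrc1* (5.79) and *Kat6a-/-* replicate 4 in *Prss22* (1.45).

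Among WT libraries, replicate 3 was apart in *Foxf2* (14.9 CPM), *Gja4* (12.4) and *Cdkn2c* (3.38), replicate 2 in *Ntn1* (167) and *Esrp1* (23.9), replicate 1 in *Fgfbp3* (28.1) and replicate 4 in *Egfl7* (60.2) and in the yolk sac sum (159).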

How the results depend on the processing

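The 375 calls against WT became 111, 159 and 631 with 0, 2 and 6 surrogate variables, 5.8e+02 (336 lower and 241 higher) with edgeR on the 8 libraries alone and 102 to 346 with 1 of the 8 libraries left out. The 232 calls against *Kat6b-/-* became 27 with 0 surrogate variables and 30 to 477 with 1 library left out, and the 227 against *Kat6a* G656E became 61 and 416 with 0 and 6 surrogate variables and 112 to 395 with 1 library left out. Other counts against WT lay within 1.5 times: 411 with edgeR, 497 with DESeq2 and 481 with *Xist* as a covariate.

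With a replicate block the counts were 277 against WT, 395 against *Kat6b-/-* and 165 against *Kat6a* G656E; the numbers do not pair the samples (correlations 0.0216, 0.0565, 0.0776 and 0.275). None of the 127 genes examined for the text reversed direction under any of these settings, and of 123 called, 42 were called in all 8 fits with 1 library left out and 30 in all settings. With 4 embryos a group, shared litter in only 1 case and 1 library with *Xist*, small changes rest on few embryos.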
